A study of Mus musculus with 12 samples.

Results

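Cells given NP-D@MP were compared with cells given NP-D@M, 2 preparations whose names differ only in the last letter. Gene expression had been measured by RNA sequencing in CT26, a cell line from a mouse colon carcinoma that is grown in culture. The members were chosen by treatment label: libraries N10, N11 and N12 (NP-D@MP) and libraries N7, N8 and N9 (NP-D@M), which make up 6 of the 12 libraries of the series. All 6 came from the same line and were collected after 24 h. The remaining libraries came from cells given PBS (3 libraries) or NP@M (3 libraries), whose names carry neither D nor P, and they give background levels here. The series title speaks of a nanodrug with an engineered tumour cell membrane that targets cyclin-dependent kinases and is combined with PD-L1 antibody. The labels spell out none of the letters D, M or P, give no dose, and leave unsaid whether a group's 3 libraries are separate cultures. The question taken from these labels is therefore what the added P in the name goes with when D is present in both groups. The authors' table holds 12584 genes, and 7915 of them had at least 1 FPKM in at least 3 of the 6 libraries and were tested. FPKM is a read count divided by the length of the gene and by the size of the library. In the PBS and NP@M libraries it is on a different scale, so PBS levels below are not directly comparable with those of the 6.

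Cyclin-dependent kinases act with cyclin partners and fall into a cell cycle branch, with Cdk1 and Cdk2, and a transcription branch, with Cdk7 and Cdk9. The transcription branch phosphorylates RNA polymerase II, and transcripts with short half-lives such as Mcl1, Myc and the immediate early genes are known to depend on it. PD-L1, encoded by Cd274, is the ligand by which tumour cells restrain T cells, and Cdk5 is known as a kinase that sustains its expression. Membrane from tumour cells is used as a particle coat because its surface proteins promote uptake by cells of the same kind. Genes of uptake, adhesion, antigen presentation and transcription were therefore described alongside the kinases.

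Before any comparison of the groups, library N9 correlated more strongly with the libraries of the other label than with those of its own. Across the 7915 genes, which are not independent replicates and share each library's depth, N9 correlated with N10, N11 and N12 at r of 0.9903, 0.9913 and 0.9895 on the log2(FPKM + 1) scale. Its r with N7 was 0.9746 and with N8 0.9731, and N7 and N8 correlated with each other at 0.9728. By r, N7 and N8 were thus no closer to each other than to N9. By the median absolute log2 difference between libraries they were closer. It was 0.230 for N7 with N8, against 0.258 for N7 with N9 and 0.273 for N8 with N9. Pairs within NP-D@MP gave 0.9887 to 0.9899. N9 thus correlated with NP-D@MP libraries as strongly as these did with each other. It lay nearer to the NP-D@MP mean than to the mean of N7 and N8 in 5496 genes (69.4%).

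The libraries also differed in how many genes had no read. In N7 and N8, 2199 and 2174 of the 12584 genes were at 0 reads, whereas N9 had 1038 and the NP-D@MP libraries had 1202, 1104 and 1211. Genes at exactly 1 read numbered 86 and 82 in N7 and N8 and 235 to 313 in the other 4 libraries. Genes at 0 reads in a library despite a mean of at least 10 reads elsewhere numbered 240 and 233 in N7 and N8, 2 in N9, and 18, 10 and 18 in the NP-D@MP libraries. Reads in the table came to 14.9, 12.8 and 14.9 M (mega-reads) for NP-D@M and 14.0, 14.2 and 13.4 M for NP-D@MP. The library size behind the FPKM values was 7.13 to 8.40 M. Mitochondrial genes held 12.9% and 14.1% of the reads in N7 and N8, 8.89% in N9, and 7.26% to 10.1% in NP-D@MP, against 3.20% to 4.08% in the libraries without D. The part of these differences in the results below was not tested. Counts of called genes, several gene lists and some single genes are given with N9 and without it. Other results are given with N9 kept.

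**Figure D1:**
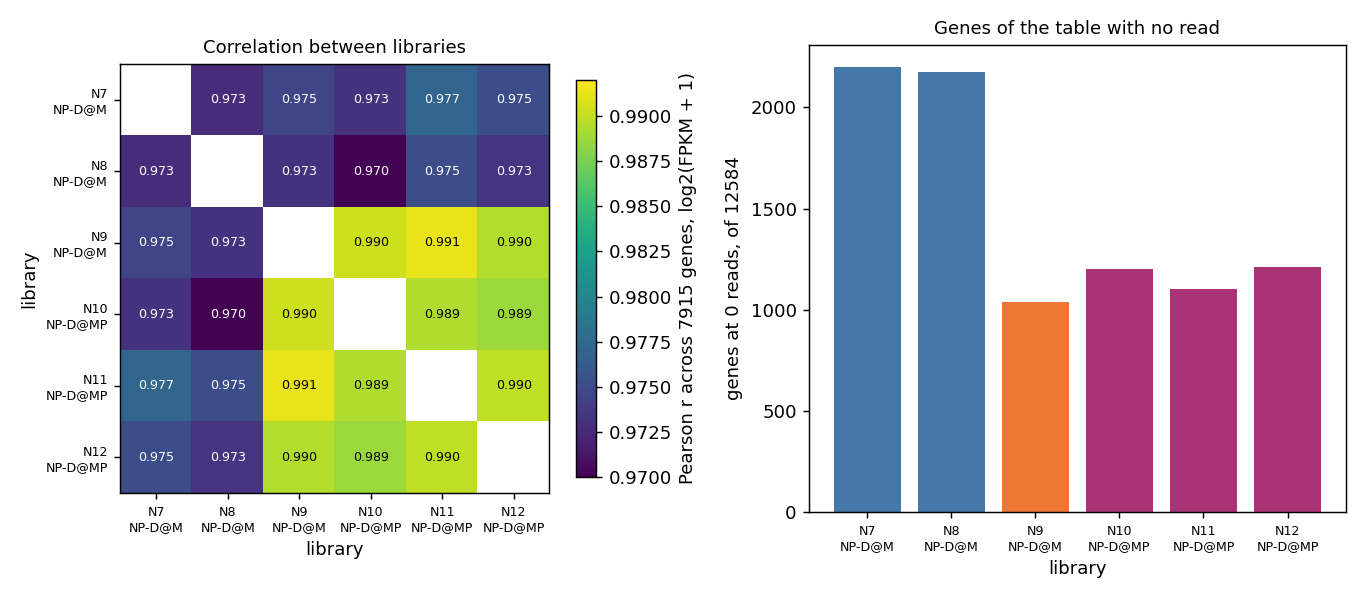
Left, Pearson r across 7915 genes on the log2(FPKM + 1) scale for each pair of the 6 libraries (columns and rows, named by library and treatment label; colour gives r). Right, the number of the 12584 genes at 0 reads in each library (bars from 0; blue N7 and N8, orange N9, purple NP-D@MP). N9 has r of about 0.99 with each NP-D@MP library and 1038 genes at 0 reads, beside 1202, 1104 and 1211 in these and 2199 and 2174 in N7 and N8.

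Marker genes of cell types were examined next. Of the colon carcinoma and epithelial list, 3 of 11 genes were in the table as analysed here. Of these, Krt18 was low, at 1.73 to 5.97 FPKM across the 6 libraries, and Lgr5 had 0 to 5 reads per library. Krt20, an intestinal keratin, was at 80.5, 71.3 and 82.0 FPKM in N7, N8 and N9 and at 75.6, 88.2 and 77.4 FPKM in N10, N11 and N12. The groups overlapped. All series of values below follow that order of libraries. The pan-leukocyte gene Ptprc had 0 to 9 reads per library, and none of the 12 T and NK cell markers, the 5 B cell markers or the 5 red cell markers was in the table as analysed here. The 4 myeloid markers found summed to 12.5 to 24.8 FPKM in NP-D@M and 17.9 to 26.1 FPKM in NP-D@MP, mostly from the lysosomal gene Cd68. Sums over the 5 fibroblast markers found were 11 to 12.9 and 12.7 to 15.2 FPKM, mostly from Col1a2. The labels' extraction protocol speaks of retinas, and 1 of the 13 retina markers was found, Sag, at 0.210 to 0.589 FPKM across the 6 libraries.

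No gene passed the test between NP-D@MP and NP-D@M. With limma on log2(FPKM + 1), 0 of the 7915 genes (0%) had a Benjamini-Hochberg adjusted p under 0.05, and the smallest adjusted p was 0.170. An unadjusted limma p under 0.05 was reached by 592 genes, of which 401 were higher (5.07% of the genes tested) and 191 lower (2.41%) in NP-D@MP. The voom fit of limma on the recovered reads also called 0 genes, with 755 higher and 164 lower at an unadjusted p under 0.05. All values of NP-D@MP lay above all values of NP-D@M in 827 genes (10.4%) and below them in 358 genes (4.52%). These shares varied with level: 18.8% and 1.57% in the most abundant quartile of genes, and 5.86% and 6.88% in the least abundant. Gene lists below were not matched to genes of a like level, so their shares beside those of all genes are a description. In these bulk libraries, fewer cells of a kind and less RNA per cell cannot be told apart.

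Differences between the group means were small for most genes. The log2 change (NP-D@MP minus NP-D@M) had a median of 0.065 over all genes tested, and its 5th and 95th percentiles were -0.34 and 0.59. It was under 0.5 in size in 91.1% of the genes and over 1 in 108 genes. The 95% interval of a gene's log2 change, not adjusted for the number of genes, extended a median of 0.38 to either side, which is 1.30-fold. Changes of that size or less were not detectable for a typical gene. Larger changes could go uncalled too, because a call was adjusted over all genes tested. The spread within groups was unequal: the SD of log2 values had a median of 0.219 in NP-D@M and 0.134 in NP-D@MP, and it was the larger in NP-D@M in 72.4% of the genes. For N7 and N8 without N9 the median SD was 0.163.

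The excess of higher over lower genes changed with the way the libraries were scaled. With the values as deposited, 69.8% of the genes whose groups did not overlap were higher in NP-D@MP. When the libraries were divided by their reads in the table, 474 genes were higher and 535 lower (47.0% higher). With a common median ratio the counts were 545 and 516 (51.4%), with quantile normalization 440 and 535 (45.1%), and after removal of a trend on gene length 414 and 636 (39.4%). At an unadjusted p under 0.05 the splits were 231 higher and 305 lower, 250 and 295, 241 and 298, and 165 and 387 in the same order of settings. Each of these settings called 0 genes. The trend on length was visible by deciles: the decile of the shortest genes had a median log2 change of 0.231 and that of the longest -0.0261.

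Without N9 the comparison set N7 and N8 against the 3 NP-D@MP libraries. Limma then called 3 genes as higher in NP-D@MP (0.0379% of 7915) and 0 as lower, and 1341 genes were higher and 420 lower at an unadjusted p under 0.05. Groups without overlap numbered 2283 genes higher (28.8%) and 1084 lower (13.7%), which are shares for 2 libraries against 3 and are not comparable with those for 3 against 3. The median log2 change was 0.0803. Of the 6 ways to leave out a single library, that without N9 was the only one in which a gene was called.

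**Figure D2:**
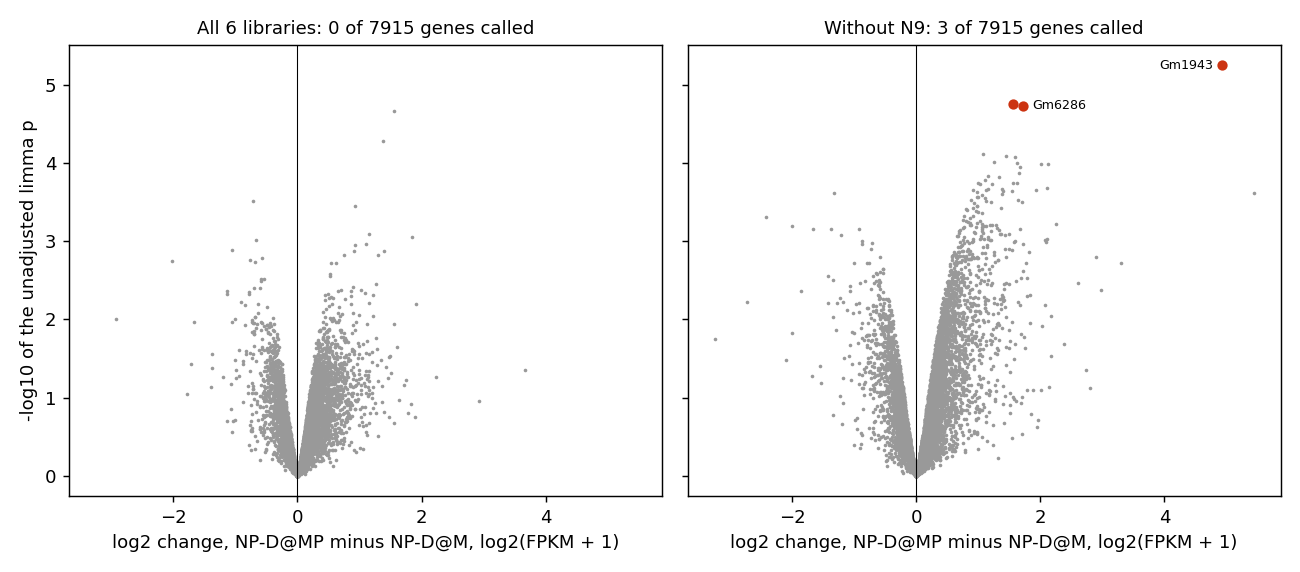
Each point is 1 of 7915 genes; the horizontal axis is the log2 change (NP-D@MP minus NP-D@M, log2(FPKM + 1) scale) and the vertical axis the negative log10 of the unadjusted limma p, with all 6 libraries (left) and without N9 (right). Red points have an adjusted p under 0.05: none on the left and 3 on the right, with the pseudogenes Gm6286 and Gm1943 labelled, where points also reach further up on the higher side.

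Of the 3 genes called without N9, Gm1943 and Gm6286 are described here because they were called, after their values were seen. Both are processed pseudogenes, copies of messenger RNAs inserted elsewhere in the genome. Gm1943 had 0, 0 and 63.7 FPKM in NP-D@M and 30.0, 21.2 and 40.3 FPKM in NP-D@MP. Gm6286, a copy related to the ribosomal protein gene Rpl7a, had 0, 0 and 2.72 FPKM and 2.63, 2.08 and 2.21 FPKM. Both had no read in N7 and N8 and reads in the other 4 libraries, with the highest value of each in N9. Every 50-base word of Gm1943 also occurs in Wdr70, and 84.4% of those of Gm6286 occur in other genes, mostly Rpl7a, so the counting of both is uncertain. The limma adjusted p was 0.0440 for Gm1943 and 0.0485 for Gm6286 without N9, and 0.580 for both with it. Without N9 the NP-D@M side holds only 2 libraries at 0, which have no spread, and the filter was passed through the libraries with reads, so these p-values support no difference. With N9 left out and the values divided by the table's reads, Gm1943 alone was called.

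Another 3 genes were called only under other settings with all 6 libraries, and they too are named after their values were seen. The pseudogene Gm11461 (chromosome 2, 165925266 to 165925841, GRCm38) had no read in any NP-D@M library and 2.42, 2.04 and 1.45 FPKM in NP-D@MP. It was also at 0 in every PBS and NP@M library. The pseudogene Gm4322 likewise had no read in NP-D@M and 1.59, 1.18 and 2.09 FPKM in NP-D@MP, and it shares 69.3% of its words with other genes. Both passed with a pseudocount of 0.1 (limma adjusted p = 0.00607 and 0.00640) and when all 12 libraries were fitted together (limma adjusted p = 0.000149 and 0.00301). In the fit on 6 libraries their limma adjusted p was 0.170 and 0.206. These 2 genes were at 2.42 FPKM or less. Since NP-D@M had no read, they passed the filter only through NP-D@MP, and the libraries at 0 have no spread, so these p-values support no difference and the levels are a description. N9 was at 0 with N7 and N8.

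The spliceosomal RNA gene Gm22818 was lower in NP-D@MP in the fit with all 12 libraries (limma adjusted p = 0.00301). Its transcribed strand is shown because it was the abundant small RNA with the clearest separation of the groups. Capitals mark ACAGAGA, the sequence by which U6, the catalytic small nuclear RNA of the spliceosome, pairs with the start of an intron. The gene lies on the minus strand of chromosome 15 (86212554 to 86212657, GRCm38, 104 bases), overlaps no other annotated gene, and shares no 50-base word with one.
Gm22818: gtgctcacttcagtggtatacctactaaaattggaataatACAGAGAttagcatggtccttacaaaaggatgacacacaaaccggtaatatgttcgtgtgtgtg
It was at 258, 293 and 281 FPKM in NP-D@M and at 170, 167 and 167 FPKM in NP-D@MP, with N9 beside N7 and N8. The groups did not overlap, and the log2 change was -0.72 ± 0.10 (SE) with N9 and -0.71 without it (limma adjusted p = 0.580 and 0.0686 in the fits on 6 and 5 libraries). Every PBS and NP@M library was at 0, so these 6 add no spread to the fit on 12 libraries and the call there is given without weight. Of 29 small nuclear RNA genes tested, 5 (17.2%) hold ACAGAGA on the transcribed strand and 0 on the other. The log2 change was positive in 3 of these 5 and negative in 2, and the 29 had a median log2 change of -0.0156. Gm24859, another of the 5 and also named after its values were seen, was at 0, 2.58 and 2.28 FPKM in NP-D@M and at 6.25, 8.63 and 7.86 FPKM in NP-D@MP.

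Because no gene was called, the genes of each direction with the smallest p were taken among those with groups that did not overlap, provided that the higher group averaged 5 FPKM or more and that the symbol was not that of a predicted gene. The 12 higher and 12 lower genes chosen in this way are a description. The limma adjusted p was 0.580 for each of the 24 with N9, and 0.0675 to 0.210 without it.

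Among the 12 higher genes, 2 were ribosomal protein pseudogenes. Rpl13-ps6 was at 5.81, 3.90 and 6.89 FPKM in NP-D@M and at 14.3, 13.7 and 11.7 FPKM in NP-D@MP, a log2 change of 1.15 ± 0.20 (SE) and a ratio of means of 2.39. Other genes hold 84.2% of its 50-base words. Rps4x-ps was at 4.81, 4.0 and 5.84 FPKM and at 6.75, 9.15 and 9.02 FPKM, and it shares 58.3% of its words. Reads of both could come from the parent genes. Their levels with PBS were 1.85 ± 0.324 and 1.10 ± 0.406 FPKM (SD, n = 3), on the different scale of the libraries without D.

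Signalling and membrane genes made up another group. Gng8, a gamma subunit of G proteins, was at 3.37, 1.99 and 2.16 FPKM in NP-D@M and at 5.10, 5.89 and 5.80 FPKM in NP-D@MP (log2 change 0.93 ± 0.17). Anxa11, a calcium-dependent membrane-binding annexin, was at 2.94, 3.07 and 3.45 FPKM and at 6.08, 4.78 and 5.22 FPKM (log2 change 0.61 ± 0.12). For both, N9 lay with N7 and N8. Fscn1 encodes fascin, which bundles actin in cell protrusions. It was at 4.67, 4.48 and 4.89 FPKM and at 7.15, 6.22 and 6.70 FPKM (log2 change 0.44 ± 0.10). Its PBS level was 62.8 ± 5.03 FPKM, on the different scale of the libraries without D.

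Enzymes and organelle genes formed most of the rest. Acad8, a mitochondrial dehydrogenase of valine breakdown, was at 5.69, 5.76 and 6.09 FPKM in NP-D@M and at 8.65, 8.15 and 9.92 FPKM in NP-D@MP. Acy1, which removes acetyl groups from amino acids, was at 7.51, 8.09 and 8.5 FPKM and at 12.3, 11 and 10.6 FPKM. In both, the 3 NP-D@M libraries were close together and N9 was the highest of them. Mrpl21, a mitochondrial ribosomal protein, was at 2.37, 3.56 and 4.24 FPKM and at 8.51, 5.70 and 6.69 FPKM. Alg1, a mannosyltransferase of protein glycosylation in the endoplasmic reticulum, was at 4.66, 4.06 and 6.90 FPKM and at 8.43, 9.34 and 10.6 FPKM. Cln6, a membrane protein of the endoplasmic reticulum with a role in lysosome function, was at 3.33, 3.62 and 2.70 FPKM and at 5.33, 4.66 and 5.01 FPKM. Exons of Alg1, Cln6, Mrpl21 and Anxa11 overlap those of genes on the opposite strand. The last 2 of the 12 were Fam216a (log2 change 0.65 ± 0.15), which shares 54.2% of its words with other genes, and CAAA01147332.1, a coding gene on an unplaced scaffold (log2 change 1.03 ± 0.24).

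Of the 12 lower genes, Gsta4 had the smallest p. It encodes a glutathione transferase that clears lipid peroxidation products. Its level was 13.5, 18 and 15.2 FPKM in NP-D@M and 10.04, 9.69 and 10.1 FPKM in NP-D@MP. The PBS value was 5.52 ± 1.31 FPKM (SD, n = 3), on the different scale of the libraries without D, so no rise with D can be read from it. The log2 change was -0.59 ± 0.13 (SE), with a 95% interval from -0.90 to -0.28, and N9 lay between N7 and N8. Camkmt, a methyltransferase of calmodulin, was at 8.46, 6.67 and 5.26 FPKM and at 2.89, 3.53 and 1.44 FPKM (log2 change -1.13 ± 0.27). Tmem203, a small membrane protein gene, was at 6.0, 9.20 and 8.70 FPKM and at 4.54, 4.63 and 3.45 FPKM, and its exon overlaps Ndor1 on the opposite strand.

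Ptpn12 encodes a tyrosine phosphatase that acts on adhesion proteins. It was at 7.09, 7.66 and 4.72 FPKM in NP-D@M and at 3.12, 3.57 and 4.16 FPKM in NP-D@MP, with N9 the nearest of its group to NP-D@MP. Adipor2, a receptor of adiponectin, was at 6.47, 9.61 and 7.11 FPKM and at 4.72, 5.43 and 4.27 FPKM. Nol10, a nucleolar protein gene, was at 6.51, 6.89 and 5.24 FPKM and at 4.29, 4.15 and 4.46 FPKM. Pcm1, a scaffold of the satellites around centrosomes, was at 6.5, 6.45 and 4.82 FPKM and at 3.91, 4.12 and 4.02 FPKM. In Ptpn12, Nol10 and Pcm1, N9 was the lowest library of NP-D@M. Their PBS levels of 12 ± 1.5, 8.74 ± 0.649 and 7.24 ± 1.09 FPKM were above both groups, but on the different scale of the libraries without D.

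The others were Osbpl7, a lipid-binding protein gene (log2 change -0.73 ± 0.20), Rps19bp1, a binding partner of a ribosomal protein (-0.44 ± 0.13), the pseudogenes Hspd1-ps3 (-0.49 ± 0.14) and Ppp1ccb (-0.66 ± 0.20), and Mir5125. Hspd1-ps3 and Ppp1ccb share 60.7% and 97.6% of their words with other genes. Mir5125, the gene of a microRNA precursor of 79 bases in an intron of Srrm2, was at 13.6, 45.4 and 12.3 FPKM in NP-D@M and at 1.69, 6.68 and 0 FPKM in NP-D@MP. These were only 9, 26 and 8 reads in NP-D@M and 1, 4 and 0 reads in NP-D@MP. Reads of Mir5125 cannot be told apart from those of the surrounding intron, and its PBS level was 15.5 ± 7.55 FPKM.

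**Figure D3:**
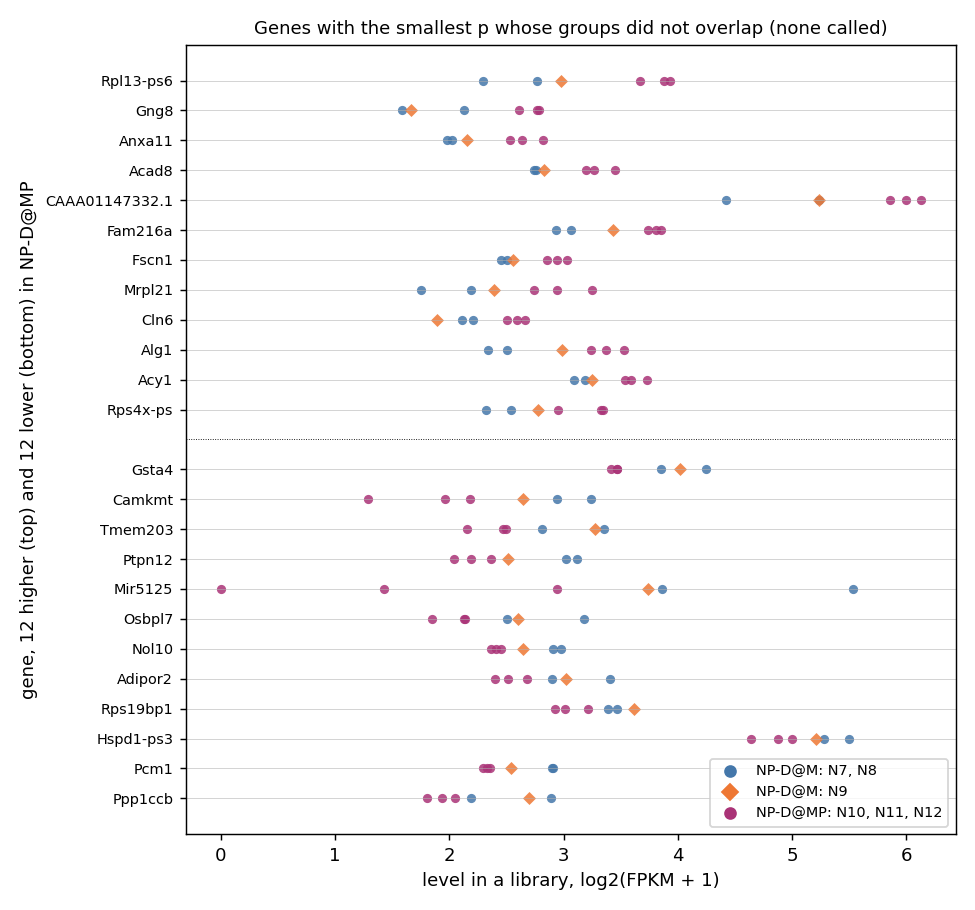
Levels in each library on the log2(FPKM + 1) scale for the 12 genes higher (top) and the 12 lower (bottom) in NP-D@MP with the smallest p among genes whose groups did not overlap; blue circles N7 and N8, orange diamonds N9, purple circles N10 to N12. None of the 24 was called (limma adjusted p = 0.580 each), and for several genes, among them Alg1 and Ptpn12, N9 is the NP-D@M library nearest to the NP-D@MP values.

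The kinases that the series title names as the target were next. Cdk9, the catalytic subunit of the elongation factor P-TEFb, was at 4.03, 3.98 and 4.52 FPKM in NP-D@M and at 5.37, 4.75 and 5.96 FPKM in NP-D@MP. The groups did not overlap, and the log2 change of 0.29 had a 95% interval from 0.01 to 0.58, but the limma adjusted p was 0.580. Both groups were under the PBS level of 8.19 ± 0.517 FPKM (SD, n = 3), which is on the different scale of the libraries without D. Cdk7, the kinase of the general factor TFIIH, was under the filter, with 25, 17 and 15 reads in NP-D@M and 3, 14 and 22 reads in NP-D@MP, and these overlapped.

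Among the cell cycle kinases, Cdk1 and Cdk2 overlapped between the groups, and Cdk4 and Cdk6, named after their values were seen, did not. Cdk1, which drives entry into mitosis, was at 1.23, 2.18 and 1.36 FPKM and at 1.11, 1.02 and 1.56 FPKM. With PBS it was at 17.6 ± 0.582 FPKM, on the different scale of the libraries without D. Cdk2, which acts at the start of S phase, was at 1.32, 1.55 and 1.53 FPKM and at 1.63, 0.975 and 0.789 FPKM. The 95% intervals of their log2 changes were -0.63 to 0.22 and -0.62 to 0.17. Cdk4, a partner of the D cyclins and the most abundant of the kinases and cyclins, was at 563, 547 and 631 FPKM and at 674, 635 and 653 FPKM (log2 change 0.17, 95% interval -0.08 to 0.43). Cdk6, the other partner of the D cyclins, was at 3.35, 3.29 and 3.31 FPKM and at 2.87, 3.20 and 2.58 FPKM (log2 change -0.16, 95% interval -0.41 to 0.10). N9 was the highest NP-D@M library for Cdk4 and lay between N7 and N8 for Cdk6. Ccnd1, the gene of cyclin D1, was at 252, 247 and 247 FPKM and at 260, 274 and 252 FPKM; these groups did not overlap, yet the log2 change was 0.08, with an interval from -0.16 to 0.31, and was negative with quantile normalization. Cdk5 was at 69.3, 61.7 and 82.3 FPKM and at 78.5, 84.6 and 86.3 FPKM, where N9 was the only NP-D@M library inside the NP-D@MP range.

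Across the list of 32 kinases and cyclins, 26 were tested and 0 were called. The groups did not overlap in 4 that were higher and 3 that were lower, 15.4% and 11.5% against 10.4% and 4.52% of all genes. The median log2 change was 0.060, near the 0.065 of all genes, and it was negative with quantile normalization and after the length correction. Ccne2, the gene of cyclin E2 and named after its values were seen, was the lowest, at 1.33, 1.42 and 1.95 FPKM in NP-D@M and 0.880, 0.981 and 0.361 FPKM in NP-D@MP. Genes of the G2/M phase (34 tested) had a median of -0.012 and those of S phase (33 tested) a median of -0.007. Ccnb2, the most abundant G2/M gene, was at 97.4, 98.9 and 97.5 FPKM and at 99.5, 105 and 105 FPKM, and its direction turned with quantile normalization and with the length correction.

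Genes of survival and of the p53 pathway overlapped between the groups, apart from Casp1. Mcl1, which blocks apoptosis, was at 9.27, 6.78 and 13.3 FPKM in NP-D@M and at 15.4, 12.6 and 12.1 FPKM in NP-D@MP. N9 lay within the NP-D@MP range, and N7 and N8 lay under it. The log2 change was 0.45 with N9 and 0.68 without it (limma adjusted p = 0.580 and 0.128). The PBS level was 58.9 ± 2.49 FPKM, above all 6 libraries but on the different scale of the libraries without D. Cdkn1a, the gene of the kinase inhibitor p21, was at 9.15, 8.88 and 10.2 FPKM and at 10.6, 9.91 and 8.29 FPKM. Mdm2, the ubiquitin ligase of p53, was at 16.7, 14.7 and 16.9 FPKM and at 15.6, 16.7 and 16.4 FPKM. Their log2 changes of 0.02 and 0.01 turned negative under each of the other scalings, and the 95% intervals were -0.28 to 0.33 and -0.25 to 0.27. Bax, the most abundant of the 21 p53 targets tested, was at 187, 167 and 217 FPKM and at 236, 194 and 209 FPKM. Casp1, the inflammatory caspase and named after its values were seen, was at 8.35, 6.54 and 5.61 FPKM and at 5.27, 4.23 and 4.96 FPKM. It was the single member of the caspase and pro-apoptotic list (11 tested) without overlap, 9.09% lower against 4.52% of all genes.

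The immune genes fixed by name did not pass the test either. Cd274, the PD-L1 gene, was under the filter, with 0, 0 and 10 reads in NP-D@M and 6, 14 and 17 reads in NP-D@MP. N7 and N8, without a read, were the low libraries and N9 lay inside the NP-D@MP range. In FPKM these were 0, 0 and 0.336 against 0.222, 0.510 and 0.658, and the mean with PBS was 1.03 FPKM. Without N9 its groups do not overlap, but 2199 and 2174 genes were at 0 reads in N7 and N8. Of the 24 genes listed as PD-L1 gene and regulators, 17 were tested, with 8 positive and 9 negative log2 changes and a median of -0.004. Over all 7915 genes, 4867 were positive and 3048 negative. Stub1, a ubiquitin ligase that acts on PD-L1 and the most abundant of the list, was at 62.8, 50.5 and 111 FPKM and at 129, 106 and 102 FPKM, with N9 again in the NP-D@MP range.

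Antigen presentation genes had mixed values. B2m, the constant chain of MHC class I, was at 6372, 5898 and 5308 FPKM in NP-D@M and at 5096, 5656 and 5428 FPKM in NP-D@MP. H2-K1, a class I heavy chain, was at 107, 130 and 219 FPKM and at 209, 128 and 190 FPKM. The log2 changes were -0.12 (95% interval -0.40 to 0.16) and 0.25 (-0.49 to 0.98). Of 18 members tested, 3 (16.7%) did not overlap and were higher, against 10.4% of all genes and 18.8% of the most abundant quartile. The list's median was 0.129. These 3, named after their values were seen, were H2-Q4, at 37.6, 35.9 and 50.1 FPKM and at 55.2, 55.9 and 55.4 FPKM, the peptide transporter gene Tap2 (log2 change 0.36) and the peptide-loading gene Tapbp (0.30). Their direction was the same under each scaling. Without N9, 8 of the 18 members were higher without overlap and 4 lower, against 28.8% and 13.7% of all genes.

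Ccl5, a chemokine that attracts T cells, was lower in each NP-D@MP library. It was at 5.34, 2.44 and 2.28 FPKM in NP-D@M and at 1.81, 1.37 and 1.17 FPKM in NP-D@MP, with N7 the highest library. The log2 change was -0.77 ± 0.27 (SE), with a 95% interval from -1.42 to -0.12, and the limma adjusted p was 0.580 with N9 and 0.157 without it. The reads behind these values were few, 43, 17 and 18 in NP-D@M and 13, 10 and 8 in NP-D@MP. With PBS it was at 0.192 ± 0.187 FPKM, from 2, 3 and 11 reads, on the different scale of the libraries without D. Cxcl10, another T cell chemokine, was at 3.44, 4.22 and 3.57 FPKM and at 2.38, 3.28 and 3.80 FPKM, and these overlapped. Isg15, an interferon-induced ubiquitin-like gene named after its values were seen, was at 8.19, 3.46 and 3.54 FPKM and at 2.48, 2.79 and 1.30 FPKM. As with Ccl5, N7 was high and N9 lay beside N8. Of the 17 interferon-stimulated genes tested, 3 (17.6%) were lower and 1 (5.88%) higher without overlap, against 4.52% and 10.4% of all genes. Ifitm3, the most abundant of the list, was at 1245, 1262 and 1462 FPKM and at 1525, 1349 and 1521 FPKM.

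Sensors of nucleic acids in the cytosol had 9 members tested and a median log2 change of -0.203, negative under each scaling. None of them was higher without overlap and none was called. Lower without overlap were 3 (33.3%), against 4.52% of all genes and 6.88% of the least abundant quartile. The 3 were Mb21d1, the gene of the DNA sensor cGAS, at 1.53, 1.57 and 1.51 FPKM in NP-D@M and 1.13, 1.31 and 0.850 FPKM in NP-D@MP, Ddx58, the gene of the RNA sensor RIG-I (log2 change -0.17), and Trim56 (-0.20). They are named after their values were seen. Mavs, the adaptor of RNA sensing and the most abundant member, was at 7.73, 10.8 and 6.85 FPKM and at 6.16, 5.24 and 8.22 FPKM. Calr, the gene of calreticulin, a chaperone that marks dying cells when exposed, was at 1290, 1358 and 1251 FPKM and at 1336, 1387 and 1436 FPKM. Its log2 change of 0.09 was negative with quantile normalization, and the 95% interval was -0.15 to 0.33.

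**Figure D4:**
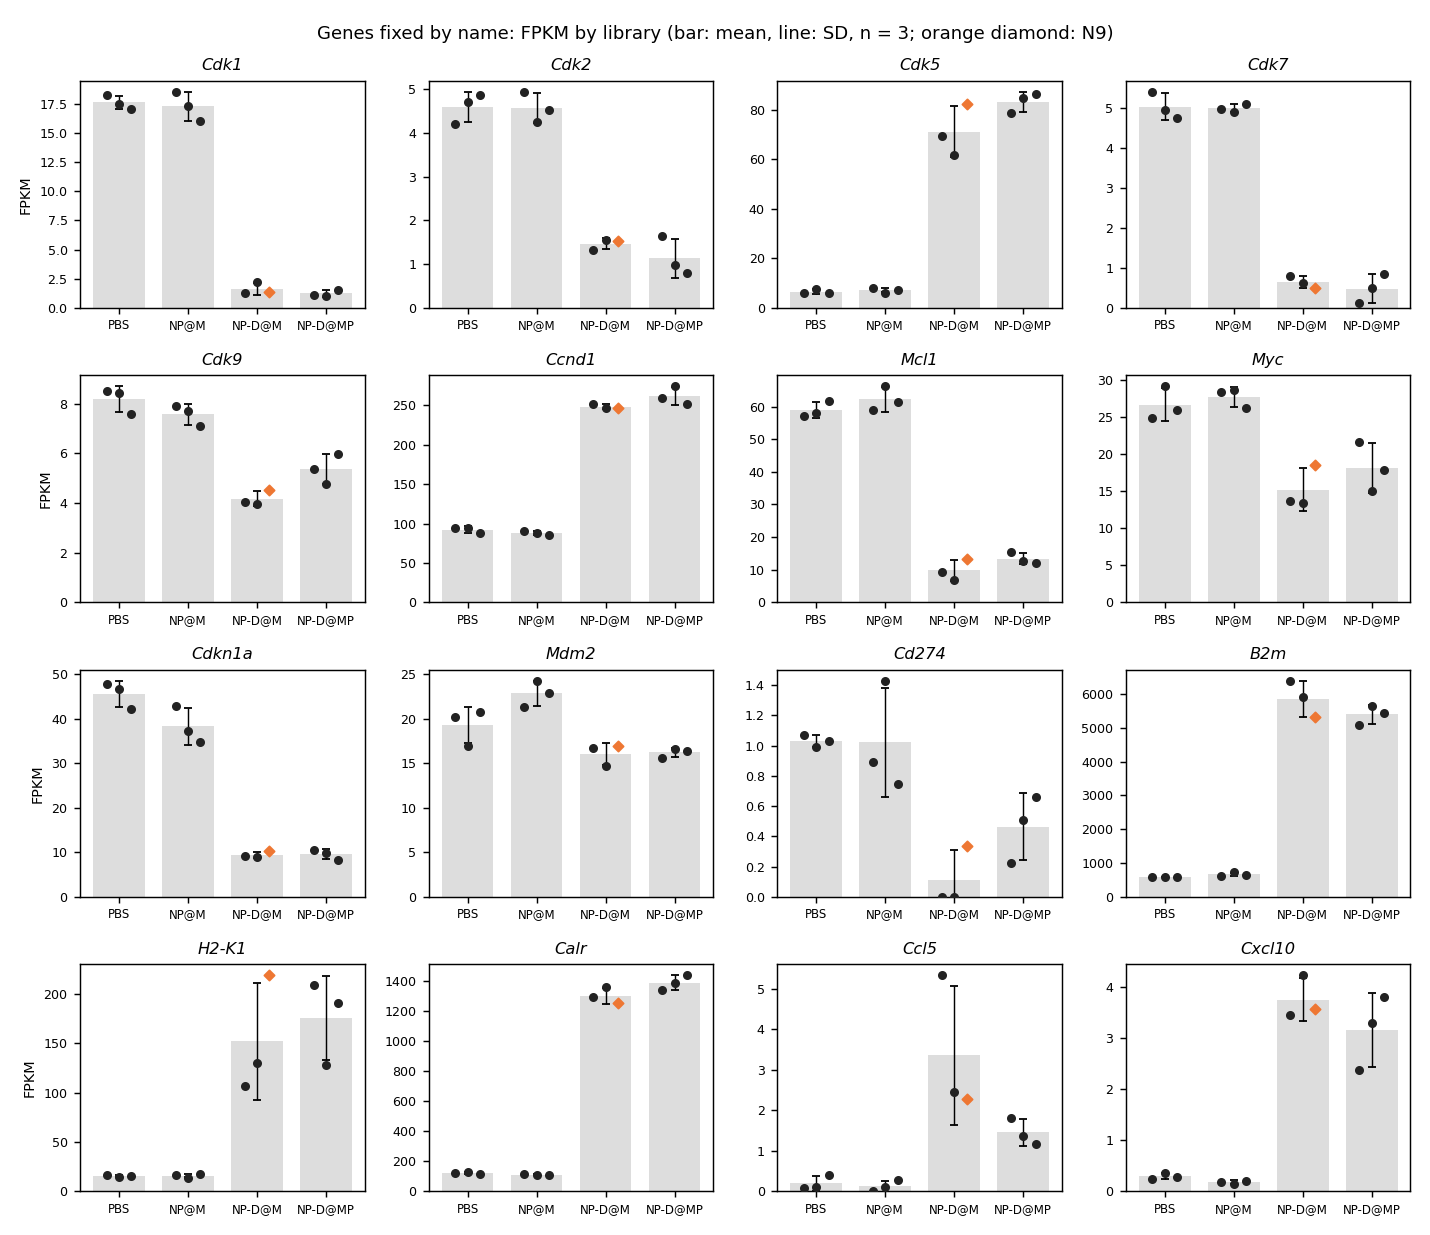
FPKM of the 16 genes fixed by name in each library of the 4 groups (bars mean, lines SD, n = 3, points libraries, orange diamond N9; every axis starts at 0 and has its own scale). For Mcl1, Myc and Cd274 the N9 value lies within the NP-D@MP range, and for Cdk1, Cdk5, Mcl1, B2m and Calr the difference between PBS and either group with D is larger than that between NP-D@M and NP-D@MP. FPKM of the groups with and without D are not on the same scale.

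None of the 31 immediate early and short-lived transcripts tested was called. A positive log2 change was found in 25 of them, and in 4867 of all 7915 genes. Higher without overlap were 4 (12.9%), near the 10.4% of all genes, and 0 were lower. The median was 0.266, against 0.065 for all genes, and it was between 0.181 and 0.227 under the other settings of scaling and length. Junb, a subunit of the AP-1 factor and the most abundant of the list, was at 332, 293 and 577 FPKM in NP-D@M and at 622, 549 and 557 FPKM in NP-D@MP. Here N9 lay within the NP-D@MP range, far above N7 and N8. Myc was at 13.6, 13.4 and 18.6 FPKM and at 21.7, 15.0 and 17.9 FPKM, with the same arrangement. Without N9, 18 of the 31 were higher without overlap and 0 lower, against 28.8% and 13.7% of all genes.

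The 4 without overlap in all libraries are named after their values were seen. Hes1, a repressor induced by Notch, was at 1.40, 2.37 and 2.75 FPKM in NP-D@M and at 3.55, 5.24 and 5.44 FPKM in NP-D@MP. Dusp1, a phosphatase of MAP kinases, was at 1.10, 2.61 and 3.16 FPKM and at 4.56, 3.81 and 3.59 FPKM. The other 2 were Fos (log2 change 0.37) and Zfp36, which promotes decay of messenger RNAs (0.28). Jund and Fosl1 are named likewise. Jund was at 13.9, 25 and 46.9 FPKM and at 64.8, 44.0 and 44.2 FPKM, and Fosl1 at 1.81, 0.969 and 5.28 FPKM and at 6.58, 3.63 and 6.49 FPKM. In Jund and Fosl1, N9 lay within the NP-D@MP range and N7 and N8 under it. Fos, at 17.9, 12.6 and 18.5 FPKM and at 20.7, 20.2 and 22.4 FPKM, differed in this, with N9 beside N7.

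Of the 28 genes of the transcription machinery tested, 4 (14.3%) were higher and 1 (3.57%) lower without overlap, near the 10.4% and 4.52% of all genes. Their median log2 change was 0.062, which was slightly negative under each of the other scalings, and Ssrp1, the most abundant, was at 368, 345 and 347 FPKM and at 348, 369 and 371 FPKM, with overlap. Replication-dependent histone genes, whose messenger RNAs lack a poly(A) tail, had the largest median of the pathway lists, 0.403 over 38 tested and 0.605 without N9. It ranged from 0.180 to 0.359 under the other settings of scaling and length. In 3 members (7.89%) the higher groups did not overlap, which is under the 10.4% of all genes. Hist1h1c, a linker histone gene and the most abundant, was at 25.7, 28.8 and 36.9 FPKM in NP-D@M and at 53.4, 39.5 and 37.0 FPKM in NP-D@MP. Hist1h2al, named after its values were seen, was at 2.46, 0 and 16.2 FPKM and at 24.5, 17.1 and 12.4 FPKM. Histone genes of a family have near-identical sequences, so the reads of single members are uncertain.

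Mitochondrially encoded messenger RNAs had a negative median. Of the 13 members, 9 had a negative and 4 a positive log2 change, against 3048 and 4867 of all 7915 genes. The median was -0.337, and it stayed between -0.479 and -0.316 under the other settings of scaling and length. The most abundant, mt-Co1, a subunit of cytochrome c oxidase, was at 76334, 83531 and 53837 FPKM in NP-D@M and at 46265, 63848 and 55604 FPKM in NP-D@MP. The cytochrome b gene mt-Cytb, named with mt-Co3 after their values were seen, was at 39093, 41978 and 26623 FPKM and at 21947, 29255 and 26777 FPKM. In both, N7 and N8 were high, and N9 lay inside the NP-D@MP range. No member was lower without overlap with N9 kept, while 8 of 13 were without it, against 13.7% of all genes in that comparison of 2 with 3 libraries. The single member higher without overlap was mt-Co3, at 367, 329 and 362 FPKM and at 495, 387 and 2880 FPKM, where N12 lay far above the other 5 libraries. Small nucleolar and spliceosomal RNAs (14 tested) had a median of -0.214, with 0 members without overlap. It was -0.318 with quantile normalization, -0.566 after the length correction and 0.0234 without N9.

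The nuclear genes of the respiratory chain were on the other side. Of 75 tested, 66 had a positive log2 change, with a median of 0.195 and 0 called. Over all 7915 genes, 4867 were positive. Relative to the reads in the table these counts were 59 and 4100. Higher without overlap were 15 (20%), against 10.4% of all genes and 18.8% of the most abundant quartile. Without N9, 52 were higher and 4 lower, against 28.8% and 13.7% of all genes, and the median was 0.266. Cox6a1, the most abundant member, was at 2043, 2178 and 3273 FPKM in NP-D@M and at 3354, 3055 and 2928 FPKM in NP-D@MP. Among the 15, named after their values were seen, Ndufa11 of complex I was at 108, 123 and 125 FPKM and at 142, 137 and 149 FPKM. Atp5d of the ATP synthase was at 386, 340 and 475 FPKM and at 528, 475 and 521 FPKM, and Cyc1 of complex III had a log2 change of 0.21. That count did not hold on another scale: relative to the reads in the table, 3 were higher and 3 lower without overlap, and the median was 0.129.

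Ribosomal protein genes repeated that dependence. Cytosolic ones (77 tested) had a median of 0.107 with 10 higher (13%) and 2 lower (2.6%) without overlap, near the 10.4% and 4.52% of all genes. Relative to the reads in the table the counts were 1 and 7, and after the length correction the median was -0.014. Without N9, 42 were higher and 6 lower, against 28.8% and 13.7% of all genes, and the median was 0.189. Rplp1, a stalk protein of the large subunit and the most abundant, was at 29338, 26660 and 38489 FPKM in NP-D@M and at 38488, 38682 and 38531 FPKM in NP-D@MP. N9 thus had the level of the NP-D@MP libraries. Rpl39, which is named after its values were seen, went the other way, at 2621, 2951 and 2012 FPKM and at 1727, 1971 and 1800 FPKM. Mitochondrial ribosomal proteins (70 tested) had a median of 0.116, with 11 higher (15.7%) and 2 lower (2.86%) without overlap (5 and 2 relative to the table's reads). The most abundant quartile of genes had 18.8% and 1.57%. Without N9, 30 of the list were higher and 5 lower, against 28.8% and 13.7% of all genes, and the median was 0.181. Mrpl16, named after its values were seen, was at 25.9, 22 and 25 FPKM and at 30.5, 32.4 and 31.7 FPKM.

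Genes of uptake and adhesion were examined because the series title speaks of a membrane coat. Of 42 endocytosis and membrane uptake genes, 6 (14.3%) were higher without overlap, near the 10.4% of all genes, 0 were lower and 0 were called. With the other settings of scaling and length 3 to 5 were higher and 2 to 3 lower, and the median of 0.074 was negative with quantile normalization. Without N9, 14 were higher and 9 lower, against 28.8% and 13.7% of all genes. Rab5c, a GTPase of early endosomes and the most abundant, was at 446, 366 and 510 FPKM in NP-D@M and at 536, 546 and 553 FPKM in NP-D@MP. Cavin1, which coats caveolae and was named after its values were seen, was at 176, 160 and 185 FPKM and at 229, 212 and 232 FPKM (log2 change 0.37). Rab4a, a GTPase of fast recycling and likewise named afterwards, was at 10.8, 8.39 and 11 FPKM and at 13.5, 13.6 and 14.4 FPKM. For Cavin1 and Rab4a, N9 lay with N7. Of 25 adhesion and integrin genes, 4 (16%) were higher without overlap, against 10.4% of all genes and 18.8% of the most abundant quartile. Lower without overlap were 0, and the median was 0.12. With the other settings of scaling and length 1 to 2 were higher. Without N9 the adhesion list had 8 higher and 4 lower. The tetraspanin gene Cd151 was at 18.6, 25 and 25.2 FPKM and at 31.7, 29.2 and 27.7 FPKM, and Sdc1, a heparan sulfate proteoglycan gene, had a log2 change of 0.36. Both were named after their values were seen.

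Collagen and mesenchymal genes (19 tested) had a median of 0.146, and Vim, the gene of the filament vimentin, was at 1206, 1341 and 1400 FPKM in NP-D@M and at 1546, 1384 and 1507 FPKM in NP-D@MP. Lysosome and autophagy genes (38 tested) had a median of 0.063, near that of all genes. Higher without overlap were 6 (15.8%), against 10.4% of all genes and 18.8% of the most abundant quartile. That count was 1 with quantile normalization and 2 after the length correction. Ctsl, the lysosomal protease cathepsin L, was at 2531, 2043 and 2281 FPKM and at 2422, 2499 and 2670 FPKM, which overlapped.

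Metabolic and stress genes gave members in both directions. Of 31 NRF2 and oxidative stress genes, 8 (25.8%) were higher and 2 (6.45%) lower without overlap. Set beside this were 10.4% and 4.52% of all genes, and 18.8% and 1.57% of the most abundant quartile. With quantile normalization 1 of the list was higher and 2 lower, and after the length correction 1 and 5. The median of 0.068 was between -0.038 and 0.002 under the other settings of scaling and length. Ftl1, a ferritin light chain gene named after its values were seen, was at 5454, 4765 and 6847 FPKM in NP-D@M and at 9080, 7017 and 7581 FPKM in NP-D@MP. Srxn1, a sulfiredoxin gene named likewise, was at 14.7, 15.8 and 15.4 FPKM and at 12.5, 11.2 and 12.1 FPKM. Cholesterol synthesis genes (20 tested) had 4 higher (20%) and 2 lower (10%) without overlap, against 10.4% and 4.52% of all genes. After the length correction the list's counts were 1 and 2. Insig1, which holds back the pathway's activation, was at 4.74, 5.08 and 6.30 FPKM and at 6.57, 7.16 and 7.53 FPKM. The synthesis enzyme gene Cyp51 was at 19.5, 21.1 and 19.5 FPKM and at 14.0, 17.5 and 16.4 FPKM. Both were without overlap and were named after their values were seen.

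Glycolysis and hypoxia genes (21 tested) had 5 higher (23.8%) and 1 lower (4.76%) without overlap. Set beside this were 10.4% and 4.52% of all genes, and 18.8% and 1.57% of the most abundant quartile. Relative to the table's reads the list's counts were 1 and 2, and 0 and 2 with quantile normalization. Without N9 they were 12 and 2, against 28.8% and 13.7% of all genes. Pkm, the pyruvate kinase gene and the most abundant, was at 2828, 2832 and 3017 FPKM in NP-D@M and at 3327, 3086 and 3107 FPKM in NP-D@MP, and its log2 change of 0.13 was negative with quantile normalization. Slc2a1, the glucose transporter GLUT1 gene named after its values were seen, was the lower one, at 2.24, 2.71 and 2.36 FPKM and at 1.87, 1.92 and 1.52 FPKM. Heat shock genes (18 tested) had a median of -0.039, with 1 higher (5.56%) and 2 lower (11.1%) without overlap. Dnaja1, a cochaperone gene, was at 1.44, 1.55 and 1.82 FPKM and at 2.79, 2.80 and 2.68 FPKM, while the chaperone gene Hspa8 was at 51.0, 57.2 and 40.4 FPKM and at 40.2, 36.0 and 36.8 FPKM, and both were named after their values were seen. Hsp90ab1, the most abundant, was at 1972, 2043 and 1882 FPKM and at 2042, 1961 and 1991 FPKM.

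The remaining pathway lists had 0 called members as well. DNA damage response genes (25 tested) and proteasome subunits (28 tested) had medians of 0.026 and 0.021. The 2 lists had 2 higher and 2 lower members each without overlap. That is 8% of the first list and 7.14% of the second in each direction, against 10.4% and 4.52% of all genes. Unfolded protein and integrated stress response genes (29 tested) had a median of 0.108, with 5 higher (17.2%) and 2 lower (6.9%) without overlap. Relative to the table's reads these counts were 2 and 2. Phgdh, the first enzyme of serine synthesis and the most abundant, was at 1793, 1735 and 1819 FPKM in NP-D@M and at 2087, 1874 and 1962 FPKM in NP-D@MP. Trib3, named after its values were seen, went the other way, at 1.57, 1.30 and 2.24 FPKM and at 0.629, 0.931 and 0.594 FPKM.

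**Figure D5:**
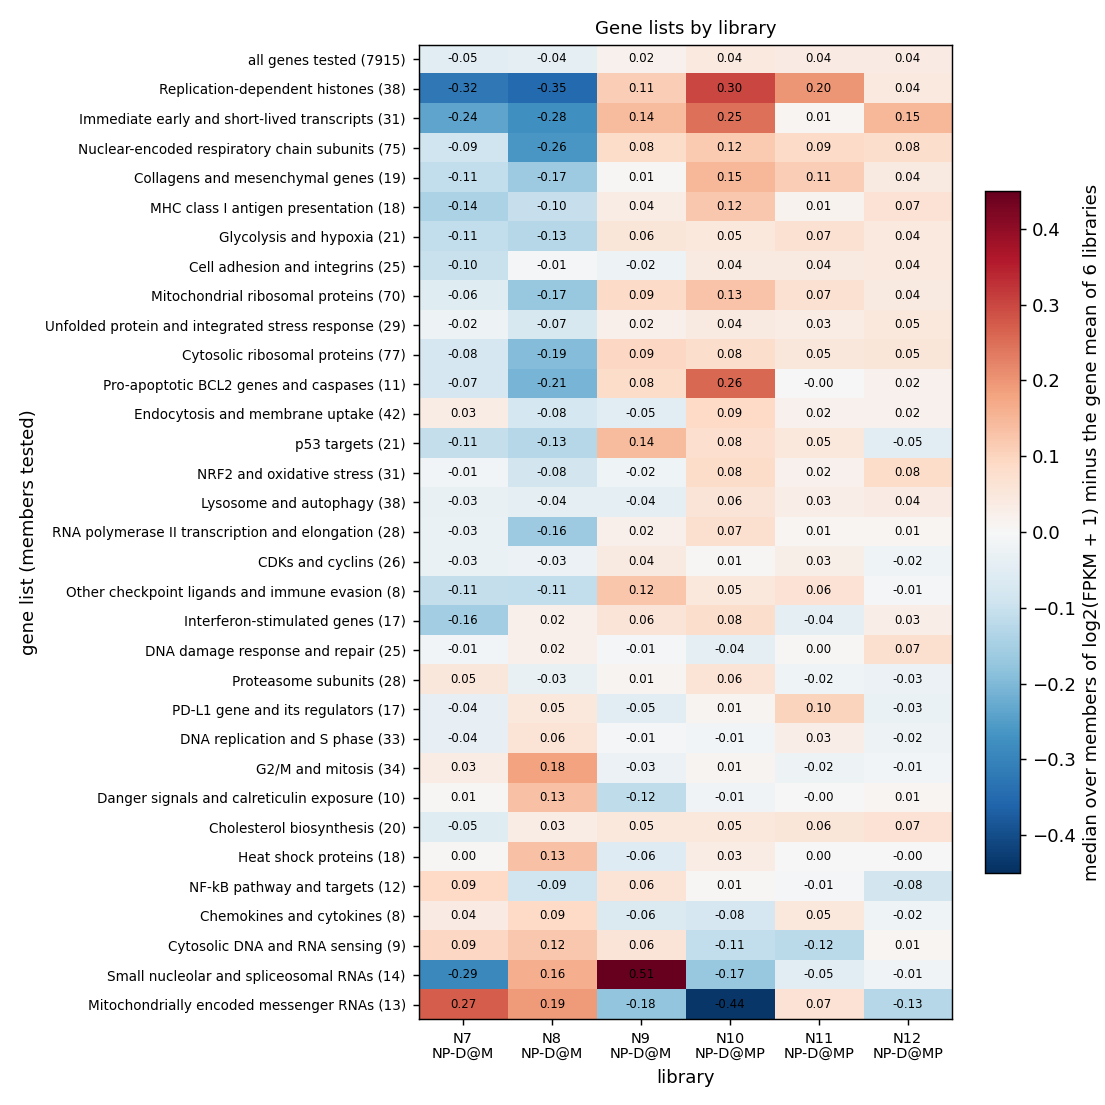
Median over the tested members of each pathway list (number in parentheses) of the log2(FPKM + 1) level minus the gene's mean over the 6 libraries, by library (columns); red is above and blue below the gene's mean, and the top row holds all genes tested. For histones and immediate early transcripts N9 is positive like N10, N11 and N12, and for mitochondrially encoded messenger RNAs it is negative like N10 and N12, with N7 and N8 on the other side in each.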

How the data were processed

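RNA of CT26 cells was sequenced in 12 libraries, of which 6 are compared here (3 per group, 24 h). Groups were taken from the treatment labels and replicates from the library numbers in the titles. An Illumina TruSeq kit was used on total RNA, per the labels' protocols. The authors deposited FPKM values, 1 column per library. The submitters' processing notes name Bowtie 0.12.2 and the build mm8. The table's identifiers and coordinates are those of GRCm38, however: 12571 of 12584 identifiers were found in GENCODE M21 and 12104 had identical coordinates there. The gene counter, its strand setting and the rule that chose the genes are not given in the sources used here.

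FPKM times gene length was a whole multiple of a single step in 100% of the values (relative tolerance 1e-06), which gave back whole reads and the library size used by the authors. In the 6 libraries that size was smaller than the table's total of reads, by a factor of 0.533 to 0.565. Log2(FPKM + 1) was computed from the deposited FPKM of the 6 libraries and tested with limma (version 3.58.1, R 4.3.3). A gene was tested where 3 or more libraries reached 1 FPKM, and a Benjamini-Hochberg adjusted p under 0.05 made a call. Only the 6 libraries entered because a read was worth several times fewer FPKM in those without D. All log2 changes are of log2(FPKM + 1) and so understate changes of genes with low levels. Since separate cultures are not stated, p-values measure only the spread between the libraries, possibly a technical one. No pair of libraries agreed within sampling noise (chi-square of 9.34 to 98.0 for each degree of freedom), so all were counted. The steps were tested on simulated data.

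Members, 42 gene lists, 16 genes fixed by name and the rule for named genes (in the text, the 12 higher and 12 lower genes, the most abundant member of each list, and the fixed genes) were chosen with earlier results of these data known. Alternatives were 3 other scalings, 3 other filters, a pseudocount of 0.1, all 12 libraries in a fit, trend and robust moderation, voom on the recovered reads, removal of a length trend, and each library left out. Added after seeing the data were counts at an unadjusted p under 0.05, counts for lists without N9, and scaling to the table's reads without N9. Sequence shared between genes was counted in words of 50 bases. The Gm22818 sequence and the overlaps were read from the GRCm38 reference. A gene called without N9 is counted but not reported here by name.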

Additional observations from a re-analysis of the deposited data

How the results depend on the processing

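The count of 0 called genes (limma, Benjamini-Hochberg) held under the 3 other scalings, the 3 other filters, trend and robust moderation, voom and the length correction. A pseudocount of 0.1 called 2 genes, 2 of them higher. A fit on all 12 libraries called 3, of which 2 were higher and 1 lower. Leaving out single libraries gave 0 to 3 called genes, higher in each case, and 3 only without N9; with the table's reads as the scale and without N9, 1 higher gene was called. Among 41 genes (the 24 with the smallest p, the fixed genes tested and those called without N9), 4 changed sign, none of them called. Of the most abundant genes of the lists, 37 were tested and 14 changed sign under another scaling or the length correction, none of them called. With the table's reads as the scale, the log2 change of Cdkn1a was -0.037 and that of Mdm2 -0.049. With a common median ratio these were -0.039 and -0.052, with quantile normalization -0.045 and -0.072, and without the length trend -0.045 and -0.039. Quantile normalization gave -0.038 for Ccnd1 and -0.032 for Calr. With the table's reads and without N9, Mdm2 was at -0.025, Ccnd1 at -0.0064 and Calr at -0.012. Leaving out single libraries moved Cdkn1a from -0.046 to 0.115 and Mdm2 from -0.049 to 0.049. The cause of these differences was not tested. No paired analysis was possible because the library numbers in the titles are not shared between the groups. Depth limits genes with few reads: with 1 read in a gene of 1 kb, the value was already 0.119 to 0.140 FPKM.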

Other observations

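Gm26917, a long noncoding RNA gene chosen with its values known, held 1.29%, 1.29% and 2.20% of the table's reads in N7, N8 and N9 and 2.41%, 1.74% and 1.78% in N10, N11 and N12. N7 and N8 were low and N9 lay within the NP-D@MP range. Its log2 change was 0.41 (95% interval -0.21 to 1.03, limma adjusted p = 0.601), and 0.68 without N9 (limma adjusted p = 0.127). The libraries without D held at most 0.0121%.

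By annotation, the 695 pseudogenes tested had a median log2 change of 0.182 and the 6896 coding genes one of 0.0611; without N9 these were 0.273 and 0.0698. Groups did not overlap in 8.49% of the pseudogenes on the higher side and 3.02% on the lower, against 10.9% and 4.67% of coding genes. By level, the most abundant quartile of genes had 18.8% higher and 1.57% lower without overlap, and the least abundant 5.86% and 6.88%. Differences between these classes were not tested.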
